A study of Mus musculus with 16 samples.

Results

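The genes described here are the 218 protein-coding genes of at least 500 kb on mouse chromosomes 1 to 19, out of 20807 protein-coding genes on those chromosomes in GENCODE M21. Membership was set by gene length alone, and no measured value was used. Just outside the threshold lie Cacna1e (493.8 kb), Dnm3 (495.6 kb) and Pde1c (499.3 kb), at 2.24, 3.16 and 3.85 pooled break ends per kb. Just inside it lie Edil3 (501.8 kb), Dock1 (503.0 kb) and Car10 (503.7 kb), at 2.25, 4.92 and 2.52. Where a reference group was needed, the 2154 protein-coding genes of 100 to 500 kb on the same chromosomes were used, of which 2150 held at least 1 end.

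DNA breaks were mapped by BLISS in AB22 cells, a mouse malignant mesothelioma line. In BLISS, free DNA ends are tagged with an adapter inside fixed cells, so that each sequenced molecule starts at a break end. The cells carried either a control hairpin (shCTRL) or a hairpin against HMGB1 (shHMGB1), a chromatin protein that bends DNA. Hairpins were delivered by a pTRIPZ virus under puromycin selection and induced by doxycycline, and cells of both kinds were synchronised in G1 and irradiated with a Caesium-137 source at 0, 3, 5 or 10 Gy. Each of the 8 groups of hairpin and dose had 2 libraries, numbered as biological replicates 1 and 2, for 16 libraries in all. The line, the doxycycline, the low-oxygen culture and the synchronisation were common to all 8 groups. The labels do not say how far apart replicates were grown, so the p-values below measure the spread between these libraries.

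Most genes of this length encode adhesion molecules, receptors, channels and scaffolds of neurons, whose large size comes from long introns. Several of them, including Fhit, Wwox, Macrod2 and Cntnap2, lie over common fragile sites, regions that break under replication stress and in which a very long transcription unit holds few replication origins. A smaller set, including Lpp, Foxp1 and Pde4d, is used in many cell types, fibroblast-like cells among them. The 4 genes followed in every comparison are Cntnap2, a neuronal adhesion protein of the neurexin family, Lrp1b, an endocytic receptor, Rbfox1, a splicing regulator, and Cdh13, a cadherin without a transmembrane domain.

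The libraries held 131430 to 1010888 ends on the main chromosomes, with a median of 805996.5 and a sum of 11380784, and shCTRL 3 Gy replicate 2 was the shallowest. Summed gene by gene, the 218 genes had 188.19 Mb and 611015 ends, and with overlaps between genes counted once they covered 185.908 Mb. With overlaps counted once they took 4.97% to 5.97% of the autosomal ends of a library. Values per library are CPM per kb, the ends in a gene scaled by the total of the library (counts-per-million) and by the length of the gene. Values summed over the 16 libraries are given as pooled ends per kb. The data hold no transcripts, so the knockdown of Hmgb1 and the identity of the cells cannot be checked from them. The densities of ends over 12 mesothelial and mesenchymal marker genes ranged from 0.034 (Krt18) to 28.5 CPM per kb (Col1a1), with a median of 2.16. Those over 13 markers of blood, endothelial and epithelial cells ranged from 0 (Hba-a1) to 0.457, with a median of 0.227. The sets overlapped, since Wt1 (0.235), Upk3b (0.228), Krt8 (0.155) and Krt18 of the first set lay within the range of the second. Krt19 (0.528) and Thy1 (0.718) lay above that range but below the median of their own set. Above that median were Msln (4.16), Col1a1, Col1a2, Col3a1, Fn1 and Vim. A density per library cannot tell fewer cells with a break from fewer breaks per cell. Because it is scaled by the total of the library, it also cannot show a change in breaks shared by the whole genome.

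Very long genes carried fewer ends per kb than genes one class shorter. Their median was 2.72 pooled ends per kb, with the middle 50% between 2.36 and 3.32, against 3.25 (2.41 to 4.91) in genes of 100 to 500 kb. Counting each genomic position once gave 2.14 against 2.5 positions per kb. Summed over genes, shCTRL libraries held 0.278 ± 0.00993 CPM per kb (SD, n = 8) in the very long genes and 0.379 ± 0.0237 in the shorter class. The shHMGB1 libraries held 0.290 ± 0.0126 and 0.370 ± 0.0148. In each of the 16 libraries the very long genes were the less dense class, with a log2 ratio averaging -0.40. Across the 218 genes, density followed that of the 500 kb on each side (Spearman's rho 0.475, a description over genes that share libraries), and it hardly followed length (rho -0.07) or the share of the gene that is exon (rho 0.08). The 55 genes of at least 1 Mb had a median of 2.66 ends per kb. The log2 ratio of a gene body to its own flanks had a median of -0.09, against -0.05 in genes of 100 to 500 kb.

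**Figure D1:**
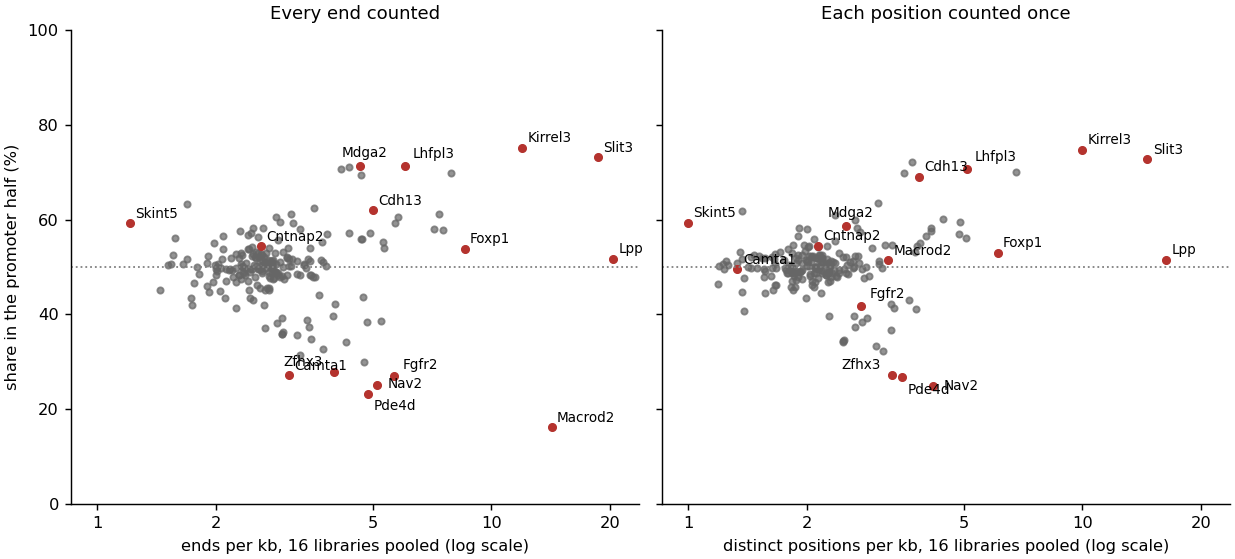
Pooled ends per kb (x axis, log scale) and the percent of a gene's ends in its promoter-half (y axis) for the 218 genes, with every end counted (left) and each position counted once (right). Most genes sit near 2 to 4 ends per kb and near 50%, while Lpp, Slit3 and Kirrel3 lie far to the right in both panels and Macrod2 drops from 14.2 ends per kb and 16.1% to 3.22 positions per kb and 51.4%.

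The densest members by mean CPM per kb were Lpp, Slit3, Macrod2, Kirrel3 and Foxp1, and Macrod2 is taken up further on because 1 spot holds most of its ends. Lpp, a LIM-domain protein of cell adhesion sites (chr16:24393507-24992578, plus strand), held 20.4 pooled ends per kb. Slit3, a secreted guidance ligand of Robo receptors (chr11:35121224-35708507, plus strand), held 18.6. Kirrel3, an adhesion protein of the immunoglobulin family (chr9:34485894-35036716, plus strand), held 11.9, and Foxp1, a forkhead transcription factor (chr6:98925338-99522721, minus strand), held 8.55. Counted by position, these 4 genes still held 16.3, 14.6, 9.99 and 6.10 per kb, against the median of 2.14. Lpp, Slit3 and Kirrel3 were among 8 members over 2 times as dense as their flanks, with Pde4d, Ptprg, Kalrn, Mast4 and Mecom. Another 18 members had under 0.5 times the density of their flanks, Cntnap2 and Dock2 among them. Of the 2150 genes of 100 to 500 kb, 259 were over 2 times as dense as their flanks and 172 under 0.5 times.

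By library, Slit3 in shCTRL ran from 1.47 through a median of 1.85 to 2.79 CPM per kb, and in shHMGB1 from 0.991 through 1.56 to 1.81. The groups overlapped. Within shCTRL the 4 libraries numbered replicate 2 were all above the 4 numbered replicate 1 (lowest 2.04 against highest 1.67), and the replicate 1 libraries of the 2 hairpins covered nearly the same range. Lpp showed the same split in shCTRL, from 1.22 to 1.94 in replicate 1 libraries and from 2.00 to 2.65 in replicate 2 libraries, against 1.2 to 2.03 over all shHMGB1 libraries. What differed between the replicates of shCTRL was not tested. Foxp1 ran from 0.725 through 0.840 to 1.06 in shCTRL and from 0.544 through 0.692 to 0.770 in shHMGB1, again overlapping. In edgeR's quasi-likelihood fit over all genes the hairpin change was -0.30 ± 0.15 (log2, SE) for Slit3, -0.13 ± 0.15 for Lpp, -0.26 ± 0.14 for Kirrel3 and -0.25 ± 0.14 for Foxp1, with Benjamini-Hochberg adjusted p of 0.513, 0.833, 0.562 and 0.567.

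At the other end stood genes with roles in neurons and skin. Skint5, of a family that supports T cells of the epidermis, had the lowest mean density, 0.101 CPM per kb, with 631 ends in all. Kcnd2, a potassium channel (0.123), Cacna2d3, an auxiliary calcium channel subunit (0.132), and Kcnip4, a partner of potassium channels (0.134), were also among the least dense. Neighbours in this order did not differ beyond their spread. Kcnd2, for example, ran from 0.0842 to 0.170 CPM per kb in shCTRL and from 0.0731 to 0.169 in shHMGB1, so the hairpin groups overlapped too.

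The 5 longest members were Gm20388 (4434.88 kb), Fgfr2 (2960.9 kb), Ptprd (2270.72 kb), Cntnap2 (2244.86 kb) and Lsamp (2197.32 kb). The first of these is a predicted read-through gene model that spans 207 other annotated genes, and the annotated Fgfr2, a fibroblast growth factor receptor gene, spans 68. They held 5.24 and 5.65 pooled ends per kb. Ptprd, a receptor tyrosine phosphatase, held 2.66, and Lsamp, an adhesion protein of the limbic system, held 2.12, both close to or below the class median.

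Ends were spread evenly from the start to the end of the typical very long gene. The median member had 50.3% of its pooled ends in the promoter-half, the part from the annotated start to the midpoint, with the middle 50% of genes between 47.8% and 52.8%. The median in genes of 100 to 500 kb was 50.1%, and the middle 50% lay between 45.8% and 54.2%. With each gene cut in 20 bins, the median density relative to the gene's mean stayed between 0.921 and 0.995 in all bins. The exact 95% binomial interval of the share lay above 50% in 63 members and below 50% in 56, or 28.9% and 25.7%, against 24.7% and 24.6% in the shorter class. By position these were 56 members (25.7%) above and 39 (17.9%) below, against 17.9% and 17.8%. Such intervals cover counting error only.

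Close to the start, ends were denser. Averaged over all 16 libraries, the first 1 kb held 0.395 ± 0.0684 CPM per kb (SD), the stretch from 1 to 5 kb held 0.298 ± 0.0262, and the stretch from 400 to 500 kb held 0.257 ± 0.0176. Between them the values did not fall steadily, with 0.308 from 5 to 20 kb, 0.285 from 20 to 50 kb and 0.307 from 50 to 100 kb. The first 5 kb exceeded the whole body by 0.16 on the log2 scale over the 218 genes, but fell short of it by -0.31 over the 55 genes of at least 1 Mb, among which is Macrod2. Summed over members, exons were denser than introns by 0.85 on the log2 scale, 0.91 in shCTRL and 0.79 in shHMGB1. The hairpin difference of that ratio was -0.02 within replicate 1 and -0.23 within replicate 2. Exons made up 1.2% of the median member and held 1.47% of its ends.

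A minority of members departed clearly from an even spread, in both directions. Kirrel3 had 75.2% of its pooled ends in the promoter-half (exact 95% interval 74.1% to 76.2%), and Slit3 had 73.1% (72.3% to 74.0%). Lhfpl3, a tetraspan membrane protein, had 71.4%, and Lrmda, a leucine-rich repeat protein of melanocytes, had 71.1%. Counting positions once left these 4 at 74.8%, 72.8%, 70.8% and 72.1%. Mdga2, a GPI-anchored adhesion protein, also had 71.4% by ends but 58.7% by position. By library, Kirrel3 ran from 74.6% through a median of 77.0% to 83.3% in shCTRL and from 68.8% through 73.9% to 79.0% in shHMGB1, and Slit3 from 66.0% to 78.4% and from 68.3% to 80.6%. The hairpin ranges overlapped in both genes.

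In windows of 50 kb, Slit3 peaked 200 to 250 kb from its start at 44.6 pooled ends per kb and fell to 6.12 at 400 to 450 kb. Kirrel3 peaked in its first 50 kb at 24.3 and had 3.94 at 400 to 450 kb. Lpp was dense throughout, with a highest window of 36.9 at 50 to 100 kb and a lowest of 14.1 at 150 to 200 kb. These profiles are those of the pooled libraries, and the peak windows were higher in shCTRL than in shHMGB1 in all 3 genes (4.63 against 3.44, 2.48 against 1.90 and 3.48 against 3.08 CPM per kb), with no test of single windows of that size.

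The opposite pattern is described here for 5 genes whose annotation holds transcript starts far inside the gene. Across the 218 members, the number of coding transcripts starting in the end-half hardly followed the promoter-half share (Spearman's rho -0.14). Macrod2 had the lowest share, 16.1%, and is taken up further on. Pde4d, a cAMP phosphodiesterase (chr13:108449948-109953461, plus strand), had 23.2% of its ends in the promoter-half, Nav2, a neuron navigator of the cytoskeleton (chr7:48908716-49610090, plus strand), 25.1%, and Zfhx3, a zinc-finger homeobox transcription factor (chr8:107942644-108961630, plus strand), 27.9%. By position they had 26.7%, 24.9% and 27.2%. Celf2, an RNA-binding splicing regulator, had 34.2%, and Frmd4a, a scaffold of cell polarity, had 32.8%. In Nav2 the density was 2.18 pooled ends per kb before the start that lies 337.473 kb inside the gene and 7.85 after it. In Zfhx3 it was 2.23 before and 9.17 after a start at 760.456 kb, and in Pde4d 2.26 before and 7.90 after a start at 810.706 kb. Frmd4a went from 2.16 to 5.16 at 282.801 kb and Celf2 from 1.88 to 4.59 at 113.365 kb. The starts named in these 5 genes were chosen after the values were seen, as those with the largest step.

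Such steps were not general. In the 135 members with at least 1 internal coding start, 295 starts in all, the median ratio of positions per kb after over before the start was 1.02. In 13 members a start had a ratio above 1.5, and in 8 members a start had one below the inverse of that. Camta1, a calmodulin-binding transcription activator, and Fgfr2 also had low shares by ends, 27.2% and 26.9%, but 49.5% and 41.8% by position. Of the 17 coding transcripts of the annotated Fgfr2, 16 start in its end-half.

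Promoter sequence is shown for Slit3 and Lpp, the densest genes, for Nav2 and Zfhx3, which step up inside the gene, and for Elmo1, whose window is 1 of the 3 with most ends. The Zfhx3 window is that of another start than the one at 760.456 kb. The windows come from RefSeq on GRCm38.p6, run from 250 bases before to 50 after a transcript start, and are written 5′ to 3′ on the strand of the gene, plus in all 6, with CG dinucleotides in capitals. The first is that of Slit3, at chr11:35121206-35121505, with 41 CG and 9 pooled ends in 6 libraries. Next come Lpp at chr16:24393100-24393399 (19 CG, 4 ends), Nav2 at chr7:48958823-48959122, 50.4 kb inside the gene (12 CG, 0 ends), and Nav2 at chr7:49245939-49246238, the start at 337.473 kb (42 CG, 6 ends). The last are Zfhx3 at chr8:108714394-108714693, 772 kb inside the gene (21 CG, 2 ends), and Elmo1, an activator of the small GTPase Rac, at chr13:20090257-20090556 (21 CG, 14 ends in 7 libraries).
Slit3: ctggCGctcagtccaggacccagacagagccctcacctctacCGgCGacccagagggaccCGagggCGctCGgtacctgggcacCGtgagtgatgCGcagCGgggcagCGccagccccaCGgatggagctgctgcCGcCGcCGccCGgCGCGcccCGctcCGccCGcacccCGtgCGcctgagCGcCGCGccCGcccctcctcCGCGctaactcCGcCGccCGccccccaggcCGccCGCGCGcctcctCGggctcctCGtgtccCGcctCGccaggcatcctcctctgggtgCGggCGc
Lpp: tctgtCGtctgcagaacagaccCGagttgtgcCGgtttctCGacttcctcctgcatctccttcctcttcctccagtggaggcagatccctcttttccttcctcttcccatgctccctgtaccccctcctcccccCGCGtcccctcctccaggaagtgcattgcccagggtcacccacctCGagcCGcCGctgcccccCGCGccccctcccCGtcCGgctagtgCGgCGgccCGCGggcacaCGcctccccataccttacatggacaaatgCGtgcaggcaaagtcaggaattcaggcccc
Nav2 at 50.4 kb: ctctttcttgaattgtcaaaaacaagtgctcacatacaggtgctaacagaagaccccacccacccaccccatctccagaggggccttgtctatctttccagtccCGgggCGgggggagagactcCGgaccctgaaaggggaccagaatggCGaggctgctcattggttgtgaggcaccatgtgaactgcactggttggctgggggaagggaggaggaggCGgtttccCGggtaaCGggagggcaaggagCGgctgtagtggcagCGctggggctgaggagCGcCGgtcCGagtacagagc
Nav2 at 337 kb: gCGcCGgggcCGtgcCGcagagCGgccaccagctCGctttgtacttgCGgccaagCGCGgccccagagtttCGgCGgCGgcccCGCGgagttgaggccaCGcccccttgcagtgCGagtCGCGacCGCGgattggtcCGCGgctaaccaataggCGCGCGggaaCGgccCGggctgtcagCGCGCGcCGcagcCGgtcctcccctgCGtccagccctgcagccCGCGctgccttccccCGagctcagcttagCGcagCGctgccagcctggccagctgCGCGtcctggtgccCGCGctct
Zfhx3 at 772 kb: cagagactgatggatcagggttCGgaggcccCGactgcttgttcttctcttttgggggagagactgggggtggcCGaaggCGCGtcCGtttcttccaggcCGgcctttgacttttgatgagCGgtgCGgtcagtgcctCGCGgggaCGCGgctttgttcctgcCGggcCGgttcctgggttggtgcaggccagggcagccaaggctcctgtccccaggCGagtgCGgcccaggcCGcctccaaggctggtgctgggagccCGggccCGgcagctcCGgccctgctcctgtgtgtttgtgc
Elmo1: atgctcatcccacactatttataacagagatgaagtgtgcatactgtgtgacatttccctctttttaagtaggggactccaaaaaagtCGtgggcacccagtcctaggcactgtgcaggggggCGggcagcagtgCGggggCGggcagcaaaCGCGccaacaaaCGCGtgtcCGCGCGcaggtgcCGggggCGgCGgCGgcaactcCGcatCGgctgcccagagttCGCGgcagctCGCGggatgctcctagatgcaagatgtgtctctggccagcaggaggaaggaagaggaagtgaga

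Of the 2 Nav2 windows, the one at the density step is the richer in CG, 42 against 12, and GC makes up 74.7% and 60.7% of them. RefSeq windows matched 166 members by symbol and numbered 264. Of these, 142 (53.8%) held no end in any library, against 46.3% of all 31396 windows, and 6 (2.27%) held 9 or more ends, against 2.87%. The 6 are those of Elmo1, Pard3 and Lpp at 328 kb with 14 ends each, Kalrn with 11, and Exoc4 and Slit3 with 9 each. Read on both strands, TATAAA was in 9.47% of member windows and 13.6% of all windows, and GGGCGG in 42.05% and 36.0%. Of the windows shown, Elmo1 has both motifs, while Slit3 and Nav2 at 50.4 kb have GGGCGG alone.

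Single dense spots set the values of a few members. In Macrod2, a hydrolase that removes ADP-ribose and a fragile-site gene (chr2:140395309-142392966, plus strand), 19962 of 28402 pooled ends (70.3%) fell in a window of 1 kb, 1659 kb from the start. That window lies in an intron, its ends sat at 12 positions, and it had ends in all 16 libraries. It held 1193 to 4634 CPM in shCTRL, with a median of 1977, and 1374 to 2089 CPM in shHMGB1, with a median of 1772. The groups overlapped, and the shallowest library, shCTRL 3 Gy replicate 2, was the highest. Fgfr2 had 5974 ends (35.7%) in such a window, Camta1 1309 (45.3%, where the annotation also has Tnfrsf9), Mdga2 1521 (43.4%, at 323 positions), Nrxn3 1293 (24.96%) and Dpp10 1266 (37.5%, at 6 positions). In 18 members the densest 1 kb held over 10% of the ends, and shCTRL 3 Gy replicate 2 was the highest library in 9 of the 18. The part of sequence repeats in these spots was not tested.

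Long stretches without any end were rare. The longest end-free stretch of a member had a median of 7.502 kb, and 3 members had one over 20 kb. In Dock2, an activator of Rac in blood cells, 136.727 kb (chr11:34544938-34681664) held no end in any of the 16 libraries. That stretch starts 102.228 kb from the annotated start and contains no exon. Cntnap2 had an end-free 46.039 kb, also without an exon, 2064.04 kb from its start, and Rims1, a scaffold of synaptic release sites, had 34.096 kb with 2 exons. Among 3665 windows of 50 kb, 3 held under 10% of their gene's median, and 2 of these are neighbours in Dock2, at 0 ends. The third is in Naaladl2, with 4 ends against a median of 74.5. Both hairpins were empty or nearly so at all 3 windows. Whether reads can be placed in these stretches was not tested.

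The first comparison between cells asks whether HMGB1 knockdown changed the relative density of ends over these genes, with counts scaled within each library. No member passed the test between hairpins in the fit of all 16 libraries without a replicate block. Across all 12626 genes tested, 10 were higher and 21 lower in shHMGB1 at an adjusted p under 0.05 (edgeR's quasi-likelihood test), 0.246% of those tested, and none of the 218 members, all of which passed the filter on low counts, was among them. At an unadjusted p under 0.05 in edgeR there were 46 members (21.1%), 44 of them higher and 2 lower in shHMGB1. Of all genes tested 1231 (9.75%) were, 637 higher and 594 lower. DESeq2 called no member either and had 38 at an unadjusted p under 0.05. The median log2 difference of the members was 0.19 against 0.04 over all genes tested. The difference was positive in 185 of 218 members (84.86%), against 54.65% of all genes tested and 65.05% of genes of 100 to 500 kb. A replicate block within each hairpin gave 100 members at an unadjusted p under 0.05 in edgeR. It called 137 of the 12626 genes, 2 of them members. The values without a block moved with single libraries. The 46 became 122 without shCTRL 3 Gy replicate 1, where 3 members were called and the median was 0.35, and 81 without shHMGB1 3 Gy replicate 1. They became 16 without shCTRL 10 Gy replicate 2, and 24 to 29 with any one of 5 others left out, namely replicate 2 of either hairpin at 0 or 3 Gy and replicate 1 of shHMGB1 at 10 Gy.

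The members' median lay at the end of a series over gene length. It was -0.15 in autosomal protein-coding genes under 20 kb, 0.02 in genes of 20 to 100 kb, 0.08 in genes of 100 to 500 kb and 0.19 in the very long genes. These classes hold only genes that passed the filter on low counts. A short gene needs more ends per kb than a long one to pass, so length and density are mixed in this series. Without the filter the members' median exceeded that of all genes by 0.06, against 0.16 with it. Within the members the median depended on density. In the 55 least dense the median was 0.25, in the next 2 groups of 54 it was 0.24 and 0.19, and in the 55 densest it was near 0, with 28 of 55 positive. The pooled log2 density ratio to genes of 100 to 500 kb was -0.45 ± 0.0653 (SD) for the 8 shCTRL libraries and -0.35 ± 0.109 for those of shHMGB1. That difference of 0.10 was -0.01 within replicate 1 and 0.20 within replicate 2.

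**Figure D2:**
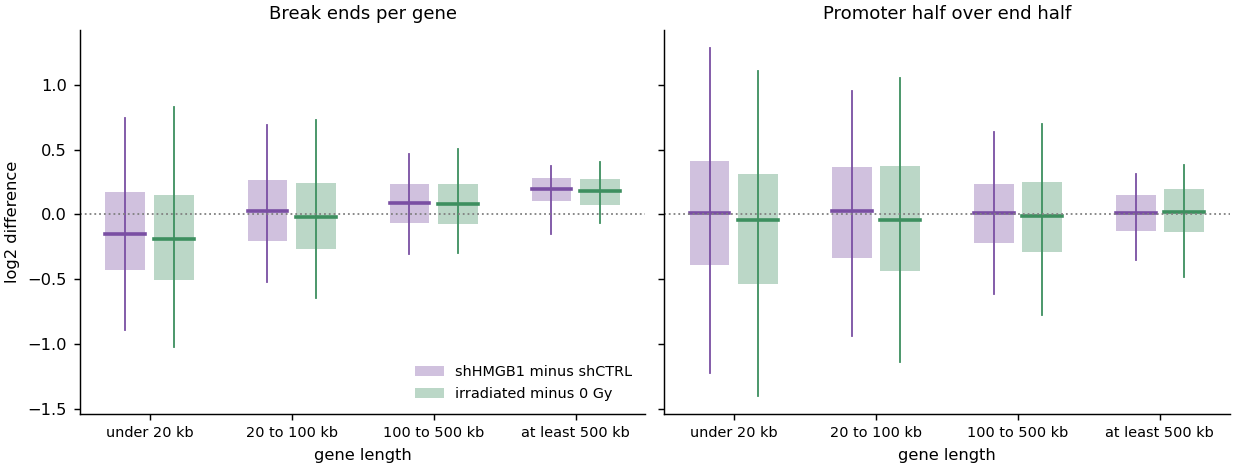
Log2 differences (y axis) of genes grouped by length (x axis) between hairpins and between irradiated and unirradiated libraries, for ends per gene and for promoter-half over end-half. Boxes show quartiles, lines medians and whiskers the 5% to 95% range. Only genes that passed the filter of each fit are included. The medians for ends per gene climb with length from -0.15 to 0.19 (hairpin) and from -0.19 to 0.18 (irradiation), while those for the promoter-half over end-half ratio stay near 0.

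Single members with the smallest p were adhesion and channel genes. Dscam, a neuronal adhesion and guidance receptor, ran from 0.117 through a median of 0.154 to 0.171 CPM per kb in shCTRL and from 0.160 through 0.193 to 0.224 in shHMGB1, which overlapped in a narrow range. Its log2 difference was 0.46 ± 0.15 (edgeR adjusted p = 0.247). Fgf14, an intracellular modulator of sodium channels, went from 0.155 ± 0.0248 to 0.201 ± 0.0214 (n = 8 each, edgeR adjusted p = 0.278). In the other direction, Cacna1c, the pore of an L-type calcium channel, went from 0.396 ± 0.0646 to 0.304 ± 0.0221, a log2 difference of -0.30 ± 0.14 (edgeR adjusted p = 0.462). Lhfpl3 differed by the same amount (edgeR adjusted p = 0.465). None of these 4 passed the threshold, and none changed sign under 23 alternatives.

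The 4 lists of members, chosen by function, held no called gene. Of the fragile-site genes, 24 of 27 listed were members, their median hairpin difference was 0.22 and 21 were positive, with 6 at an unadjusted p under 0.05. Macrod2, Cntnap2 and Lrp1b, the 3 with most ends, differed by 0.02 ± 0.17, 0.24 ± 0.15 and 0.25 ± 0.15. Of the neuronal adhesion and guidance genes, 32 of 36 were members, with a median of 0.24 and 29 positive. Kirrel3, Ptprd and Cntnap2 had the most ends, and Ptprd differed by 0.17 ± 0.15. Channels, receptors and their partners had 22 of 32 members, a median of 0.22 and 20 positive, and Dpp10 (a partner of potassium channels) and Trpm3 (a cation channel) differed by 0.36 ± 0.14 and 0.13 ± 0.14. The large genes used in many cell types had 22 of 32 members, a median of 0.01 and 14 positive. Lpp, Pde4d and Foxp1 differed by -0.13 ± 0.15, 0.02 ± 0.14 and -0.25 ± 0.14. That last list was also the densest, with a median of 3.6 pooled ends per kb against 2.62, 2.73 and 2.43 in the other lists.

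The second comparison set irradiated against unirradiated libraries. No member had a called change in its relative density of ends after gamma rays. Counts were scaled within each library, so a rise in breaks shared by all genes would not show. Across all 12626 genes tested, 1 was higher and 1 lower in irradiated libraries, 0.0158% of those tested, and no member was. At an unadjusted p under 0.05 in edgeR there were 16 members (7.34%), all higher after irradiation (10 members with DESeq2). Of all genes tested 871 (6.9%) were, 395 higher and 476 lower. Of the members 192 of 218 (88.07%) were positive, against 50.86% of all genes tested and 63.93% of genes of 100 to 500 kb. The members' median was 0.18 against 0.01 over all genes. Without shCTRL 3 Gy replicate 1 the median was 0.07, with 145 positive and 5 at an unadjusted p under 0.05, and over all genes it was -0.12. Without shCTRL 0 Gy replicate 2 it was 0.11, also with 5. The 16 became 8 and 9 without shHMGB1 0 Gy replicate 1 or 2, and 28, 33 and 39 without shHMGB1 3 Gy replicate 1, shCTRL 0 Gy replicate 1 and shCTRL 3 Gy replicate 2. By length the medians were -0.19 under 20 kb and -0.02 from 20 to 100 kb. They were 0.08 from 100 to 500 kb and 0.18 in the members. Without the filter on low counts the members' median exceeded that of all genes by 0.12, against 0.17 with it. The members' share of autosomal ends was 5.20% ± 0.173 at 0 Gy (SD, n = 4) and 5.51% ± 0.226 after irradiation (n = 12). Within replicate 1 the share was higher by 0.297 percentage points, within replicate 2 by 0.315.

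By dose, the share in shCTRL averaged 5.10%, 5.39%, 5.30% and 5.45% at 0, 3, 5 and 10 Gy, and in shHMGB1 5.30%, 5.64%, 5.70% and 5.57%. The lowest mean of each hairpin was that at 0 Gy, and no steady rise with dose followed. Its spread between the 2 libraries of a group reached 0.469 percentage points (SD), in shHMGB1 at 3 Gy. In the edgeR test of whether the irradiation response differed between hairpins, 0 of 12626 genes were called (0.0%). At an unadjusted p under 0.05 there was 1 member, against 5.2% of all genes, and DESeq2 had none. Without shCTRL 3 Gy replicate 1 there were 29, and without any other single library 0 to 5.

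**Figure D3:**
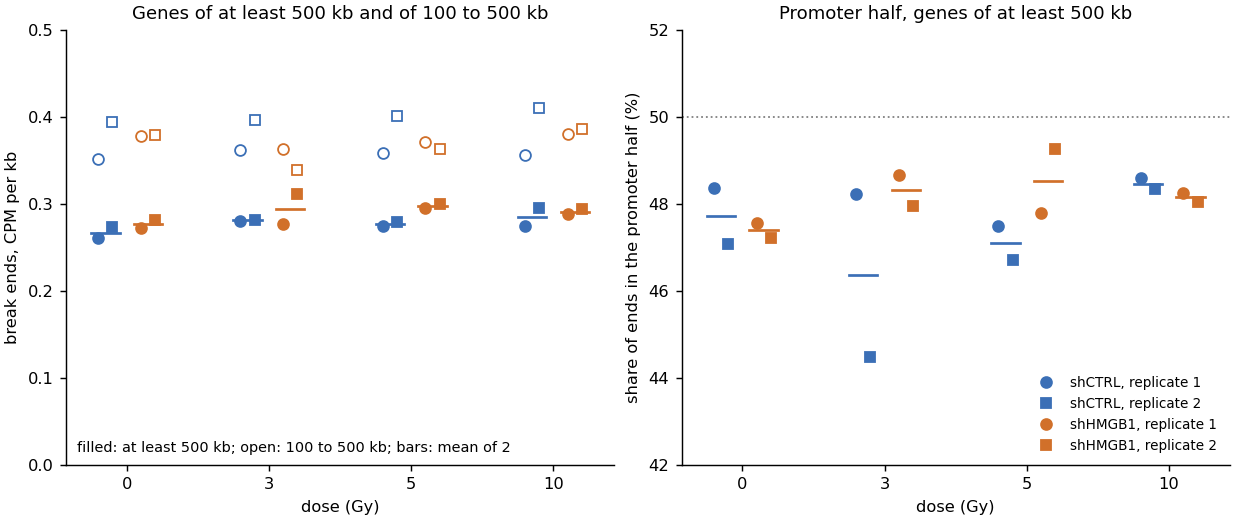
Left, CPM per kb of each library summed over genes of at least 500 kb (filled) and of 100 to 500 kb (open), by dose in Gy and hairpin, with bars at the mean of 2 libraries. Right, the percent of member ends in the promoter-half in each library, on an axis from 42% to 52% with a dotted line at 50%. The very long genes lie below the shorter class at each dose, and shCTRL 3 Gy replicate 2 is the lowest point on the right at 44.5%.

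Car10, a protein related to carbonic anhydrases, had the smallest p among members. It ran from 0.132 to 0.200 CPM per kb over the 4 unirradiated libraries and from 0.189 to 0.288 over the 12 irradiated ones, which overlapped. Its log2 difference was 0.55 ± 0.18 (edgeR adjusted p = 0.488). Stpg2, a protein of the sperm tail, differed by 0.51 ± 0.18 (edgeR adjusted p = 0.531). The 2 members with the smallest p in the other direction, Rad51b, a recombination repair gene, and Rbms3, an RNA-binding protein, differed by -0.18 ± 0.16 and -0.16 ± 0.16 (edgeR adjusted p = 0.854 and 0.864). Among the lists, the median was 0.18 for fragile-site genes (24 of 24 positive), 0.22 for adhesion and guidance genes, 0.21 for channels and receptors and 0.09 for genes used in many cell types (20 of 22 positive). No gene of any of the 4 lists was called.

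The third comparison asks whether hairpin or dose moved ends between the start and the end of a gene. It counts the ends of the promoter-half and of the end-half of a gene in the same fit. Of 6503 genes tested with edgeR, 2 were higher and 2 lower in the ratio between hairpins (0.0615%), and no member was among them. There were 13 members at an unadjusted p under 0.05, against 5.94% of all genes, and the members' median was 0.01 against 0.02. For irradiation no gene was called (0.0%), and 14 members had an unadjusted p under 0.05 against 5.37%. For the difference of the irradiation responses no gene was called either (0.0%), and 6 members were under 0.05 against 4.97%. Without single libraries these counts ran from 7 (no shHMGB1 3 Gy replicate 2) to 24 (no shCTRL 3 Gy replicate 1) for the hairpin, from 12 to 23 (no shCTRL 0 Gy replicate 1) for irradiation and from 5 to 19 (no shCTRL 0 Gy replicate 2) for the difference of responses, and no member was called. DESeq2 was not run on this ratio. Summed over members, 47.4% ± 1.36 (SD) of ends were in the promoter-half over the 8 shCTRL libraries, and 48.1% ± 0.641 over those of shHMGB1. The pooled log2 ratio of promoter-half over end-half ends was -0.13, and it was -0.03 without Macrod2 (left out after the data were seen), 0.04 with each position counted once and 0.11 for the first 100 kb over the last 100 kb of each gene. The direction of this pooled value thus rested on the way of counting.

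Frmd4a and Cdh13 had the smallest p between hairpins in this ratio, with differences in opposite directions, and neither passed. Frmd4a had 18.7% to 39.8% of its ends in the promoter-half in shCTRL, with a median of 28.5%, and 29.5% to 47.3% in shHMGB1, with a median of 34.6%. The groups overlapped, and the log2 difference of the ratio was 0.64 ± 0.19 (edgeR adjusted p = 0.693). Mctp1, a membrane protein with calcium-binding C2 domains, differed by as much, 0.64 ± 0.25 (edgeR adjusted p = 0.734). Lrrtm4, a synaptic adhesion protein, went from 56.4% ± 5.98 in shCTRL to 48.6% ± 3.58 in shHMGB1 (n = 8 each, edgeR adjusted p = 0.796).

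For irradiation the members with the smallest p were Lama2 and Galntl6. Lama2, a laminin chain of basement membranes, had 28.8% and 35.4% in the promoter-half in the 2 unirradiated shCTRL libraries and 53.5% and 43.5% in those of shHMGB1. The 12 irradiated libraries averaged 54.5% ± 6.40. Its low values were those of unirradiated shCTRL, and the log2 difference was 0.92 ± 0.27 (edgeR adjusted p = 0.809). Galntl6, of the family that starts O-glycosylation, averaged 66.3% ± 7.71 at 0 Gy (n = 4) and 56.0% ± 4.56 after irradiation (n = 12, edgeR adjusted p = 0.809). Ptprt, a receptor tyrosine phosphatase, and Pcdh15, a protocadherin of hair cells, differed by 0.46 ± 0.18 and -0.49 ± 0.19 (edgeR adjusted p = 0.837 for both).

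Of the 4 genes followed throughout, Lrp1b lay in the middle 50% of members in both density and promoter-half share, Cntnap2 in density alone, Rbfox1 in share alone and Cdh13 in neither. Cntnap2 (chr6:45059357-47304213, plus strand) held 2.59 pooled ends per kb, 54.4% of them in the promoter-half. It ran from 0.169 through 0.210 to 0.245 CPM per kb in shCTRL and from 0.175 through 0.241 to 0.288 in shHMGB1. The groups overlapped, with a log2 difference of 0.24 ± 0.15 (edgeR adjusted p = 0.620). In windows of 50 kb its highest density, 3.6 pooled ends per kb, was in the first window, and its lowest, 0.54, was at 2050 to 2100 kb, where the end-free stretch lies.

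Lrp1b (chr2:40595246-42653624, minus strand) held 2.77 pooled ends per kb and 48.8% in the promoter-half, and its windows stayed between 1.84 and 3.72. It ran from 0.181 to 0.251 CPM per kb in shCTRL and from 0.202 to 0.299 in shHMGB1, overlapping (0.25 ± 0.15, edgeR adjusted p = 0.578). Rbfox1 (chr16:5885355-7411526, plus strand) held 3.52 and 47.8%. Its highest window, at 1050 to 1100 kb, had 9.42 pooled ends but 2.82 positions per kb. It ran from 0.239 to 0.324 in shCTRL and from 0.288 to 0.385 in shHMGB1, overlapping (0.22 ± 0.15, edgeR adjusted p = 0.649). After irradiation the log2 differences were 0.28 ± 0.17 for Cntnap2, 0.30 ± 0.17 for Lrp1b and 0.15 ± 0.17 for Rbfox1, with edgeR adjusted p of 0.769, 0.749 and 0.893.

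Cdh13 (chr8:118283733-119324921, plus strand) was denser and leaned to its start. It held 5.01 pooled ends per kb, 62.0% of them in the promoter-half and 69.0% by position. Its first 50 kb held 13.1 per kb and its lowest window, at 950 to 1000 kb, 1.94. Over the whole gene it ran from 0.452 through 0.495 to 0.549 CPM per kb in shCTRL and from 0.330 through 0.403 to 0.449 in shHMGB1. These groups did not overlap, and each shCTRL library was above all shHMGB1 libraries. How many other genes separate in this way was not counted. The edgeR difference was -0.25 ± 0.14, which did not pass (edgeR adjusted p = 0.580).

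The lower level of Cdh13 in shHMGB1 lay mostly in its promoter-half. At 0, 3, 5 and 10 Gy the promoter-half averaged 0.558, 0.626, 0.697 and 0.716 CPM per kb in shCTRL and 0.511, 0.423, 0.448 and 0.479 in shHMGB1 (2 libraries each). The end-half averaged 0.391, 0.359, 0.357 and 0.281 in shCTRL and 0.339, 0.364, 0.298 and 0.352 in shHMGB1. It includes a 1 kb spot, 933 kb from the start, with 447 pooled ends at 4 positions. The share in the promoter-half was thus 58.8%, 63.7%, 66.3% and 71.5% in shCTRL and 60.2%, 53.8%, 60.0% and 57.5% in shHMGB1. At 3, 5 and 10 Gy both shCTRL libraries were above both shHMGB1 libraries of the same dose, and at 0 Gy they overlapped. The log2 difference of the ratio between hairpins was -0.46 ± 0.15 (edgeR adjusted p = 0.693), and the difference of the irradiation responses was -0.73 ± 0.34 (edgeR adjusted p = 0.963).

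**Figure D4:**
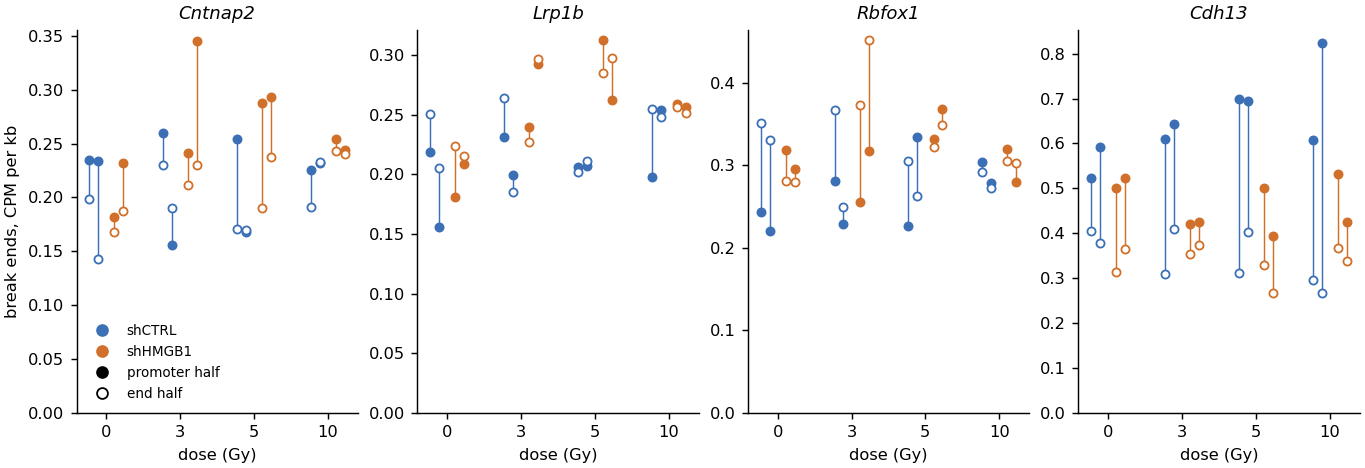
CPM per kb (y axis) of the promoter-half (filled points) and end-half (open points) of Cntnap2, Lrp1b, Rbfox1 and Cdh13 by dose in Gy (x axis) and hairpin, 1 point per library. The filled and open points overlap in Cntnap2, Lrp1b and Rbfox1, while in Cdh13 the filled points are above the open ones and reach a mean of 0.716 in shCTRL at 10 Gy.

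A last fit used windows of 100 kb, to look for changes in parts of a gene. Of 23662 windows tested, none was higher and 8 were lower in shHMGB1 (0.0338%), and 1 of the 1653 windows inside members was among them. It lies in Macrod2 (chr2:140900001-141000000), 504.7 kb from the start and far from the dense spot. It ran from 45.4 through 115.1 to 144.6 CPM in shCTRL and from 48.3 through 57.1 to 64.3 in shHMGB1, so that the groups overlapped at the low end. Its log2 difference was -0.86 ± 0.19 (edgeR adjusted p = 0.0355). Of its 831 pooled ends, 323 (38.9%) were at a single position. With each position counted once the difference was -0.26 (edgeR adjusted p = 0.750). Leaving out 1 library at a time gave edgeR adjusted p from 0.00374 to 0.318, above the threshold in most of the 16 cases. At an unadjusted p under 0.05 there were 137 member windows (8.29%), against 8.59% of all windows. For irradiation 2 windows were lower and none higher in edgeR (0.00845%), and none was in a member. There 123 member windows (7.44%) had an unadjusted p under 0.05, against 7.78% of all.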

How the data were processed

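Break ends were measured in 16 BLISS libraries, 2 for each of 2 hairpins and 4 doses. Per the labels' protocols, ends were blunted and tagged in fixed cells, and the DNA was sonicated, transcribed in vitro and made into small RNA libraries. Per the submitters' processing notes, the tools were BWA 0.7.5-r404, Trimmomatic 0.32, UMI-tools, bedtools and SAMtools, on mm10, with settings and order not given in the sources used here. The deposited files give raw counts of ends with the position of each end and no strand, not normalised by the authors. UMI-tools removes copies of a molecule, and how it was applied is not given. RNA-seq and ATAC-seq of the study were not analysed here.

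Each end was placed at its own position, written 1-based. CPM used ends on the main chromosomes. A gene runs from its annotated start to its end in GENCODE M21, and ends in an overlap counted for both genes. Ends per gene (protein-coding and long noncoding genes of the main chromosomes), promoter-half against end-half counts (autosomal protein-coding genes) and autosomal 100 kb windows were each fitted over the whole table with edgeR 4.0.16 (R 4.3.3), by glmQLFit on 8 group means with TMM factors, filterByExpr for genes and windows, a mean of at least 10 ends for the fit of promoter-half against end-half counts, and Benjamini-Hochberg adjustment at 0.05. DESeq2 1.42.0 was an alternative for genes, and the code was tested on simulated data. Irradiated means the average of 3, 5 and 10 Gy. Sums over members carry no test. Other steps used pandas 2.3.3 and numpy 2.4.6 in Python 3.11.15, with intervals from scipy 1.17.1 and plots from matplotlib 3.10.9.

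Membership followed from gene length alone. The choice to describe this group of genes, and the choice of the gene lists, were made with earlier results of these data known. Named are the 4 examples, the 5 longest, the 5 densest and 5 least dense by mean CPM per kb, and the 5 highest and 5 lowest promoter-half shares among members with at least 500 ends. So are members past a test, the 2 members of smallest p each way in both gene fits, Dock2 and other genes with end-poor windows, the neighbours of the threshold and the 3 members of each list with most ends. Some genes that this rule names are not reported here. Internal starts, end-free stretches, 1 kb spots, promoter windows, groups by density and the genes of chromosome X were added after the data were seen, and genes named there were chosen after their values were seen. Alternatives were DESeq2's size factors and test, library totals without TMM, no filter, other thresholds of length and mean, the ratio without exons or without the first and last 5 kb, each position counted once, replicate numbers as a block, and each library left out in turn. Leaving out Macrod2, and leaving out predicted genes with names in Gm, were added after seeing the data.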

Additional observations from a re-analysis of the deposited data

Results flagged for a closer look

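Of 30 groups of libraries checked for a value far from the others, 2 held one, and chance marks about 1 group in 20. Among the 8 shCTRL libraries, the share of member ends in the promoter-half was lowest in 3 Gy replicate 2, at 44.5%, with the other 7 between 46.7% and 48.6%. In the same library the dense 1 kb spot of Macrod2 was the highest of shCTRL, at 4634 CPM, against a median of 1977. The 2 flags are not independent. That spot lies in the end-half of Macrod2, and its 609 ends in this library lower the promoter-half share. That library is the shallowest, with 131430 ends.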

How the results depend on the processing

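Of the values summed over members, which carry no test, 3 changed sign by more than the spread between replicates, and 2 others near 0 changed sign within it. Depth limits single members: the median member held 0.232 CPM per kb in libraries of 131430 to 1010888 ends, and log2 differences such as that of Cntnap2 had a standard error of 0.15. None of the 16 named differences of single genes changed sign under the 22 or 23 alternatives of its fit, and 360 values of single genes stayed on their side of the threshold.

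Values summed over members moved with the genes and the counting. The log2 ratio of promoter-half over end-half ends, -0.13, was 0.0398 with each position counted once, 0.11 for the first against the last 100 kb, -0.45 in genes of at least 1 Mb and -0.029 without Macrod2. The exon over intron ratio, 0.85, was 1.01 in genes of at least 400 kb and 0.47 in genes of at least 1 Mb, where its irradiation difference of -0.13 became 0.0412. The density ratio of -0.40 was -0.31 in genes of at least 1 Mb and -0.11 against the rest of the autosomes without dense clusters. The ratio of the first 5 kb to the body, 0.16, was 0.46 with the first 1 kb (irradiation difference -0.39) and -0.31 in genes of at least 1 Mb (irradiation difference -0.20). Those that changed sign by more than the spread are the ratio of promoter-half over end-half ends, the irradiation difference of exons over introns and the ratio of the first 5 kb to the body. The causes were not tested.

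Counts of called genes over the whole table moved too. The 31 genes of the hairpin comparison were 69 with each position counted once, and the 2 of irradiation were 0 with DESeq2, 4 without TMM and 1 without a filter. The 4 of the promoter-half against end-half fit were 0 without exons and 0 with each position counted once. The 2 windows of irradiation were 0 with each position counted once, as was the 1 member window of the hairpin comparison. Without a filter the median of all genes in the hairpin comparison rose from 0.04 to 0.14 and that of members was 0.20.

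Replicate numbers are shared between groups but nothing in the labels ties equal numbers to a day or culture. Deviations from the group means of equal-numbered libraries correlated at 0.0811 to 0.200 within a hairpin (median 0.156, 10 of 12 pairs above 0.1). Between hairpins they correlated at -0.212 to 0.103 (median 0.005, 1 of 16 above 0.1). The main fit did not take the numbers to pair the libraries, so any deviation shared within a hairpin stayed in its spread. With the replicate block the hairpin comparison called 42 genes and 16 windows, and no member gene. With a replicate block within each hairpin it called 137 genes, 2 of them members (Auts2, log2 0.45, and Nrg3, 0.43). It also called 72 windows, 3 of them in members, while irradiation called 19 genes and 8 windows. At an unadjusted p under 0.05 in edgeR, this block gave 100 members for the hairpin and 40 for irradiation. Without a block there were 46 and 16.

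Leaving out 1 library at a time gave 11 to 125 genes for the hairpin comparison, with 0 to 3 members (Sgcd and Lsamp among them, all without shCTRL 3 Gy replicate 1), and 1 to 12 for irradiation and 0 to 1 for the difference of responses. The promoter-half against end-half fit gave 0 to 5 (hairpin) and 0 to 1 (difference of responses), and the windows 2 to 130 with 0 to 5 in members (hairpin) and 0 to 9 (irradiation). The most genes and windows of the hairpin comparison, and 12 genes for irradiation, came without shHMGB1 3 Gy replicate 1. The members' median stayed above that of all genes each time, by 0.10 to 0.22 for the hairpin and 0.08 to 0.22 for irradiation.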

Other observations

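The rule left out chromosome X, which has 12 protein-coding genes of at least 500 kb. Their median was 1.82 pooled ends per kb, against 2.72 on chromosomes 1 to 19. The lowest was Aff2, a transcription elongation factor, at 1.40, and the highest Il1rapl1, a synaptic adhesion protein, at 2.91. Dmd, the dystrophin gene, is 2257.27 kb long and held 0.136 ± 0.0230 CPM per kb (SD over 16 libraries), and Diaph2, a formin of the actin cytoskeleton, held 0.209 ± 0.0204. The X-linked values were not tested against the others. By autosome, the median member was least dense on chromosome 5, at 2.06 pooled ends per kb over 11 genes, and reached 3.63 on chromosome 15 over 6 genes.

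Promoter windows are 300 bases long, so each held few ends. Those within 1 kb of the annotated start averaged 1.04 pooled ends, and those at least 50 kb inside the gene 1.37. Scaled to length, neither mean is below the members' median of 2.72 pooled ends per kb. Of 140 promoter windows within 1 kb of the annotated start, 42.1% held an end, and of 102 windows at least 50 kb inside the gene, 51.0% did, a difference that was not tested. The windows inside had fewer CG dinucleotides, with medians of 7 against 19.5.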
